A study of Mus musculus with 8 samples.

Results

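The genes described here encode the proteins of the cytosolic ribosome. They were chosen by name from the GENCODE M21 mouse annotation, as protein-coding genes whose symbol is Rpl or Rps followed by a digit, together with Rplp0, Rplp1, Rplp2 and Rpsa, without pseudogenes and without the kinases that share the Rps6 prefix. The rule found 86 of the 48440 genes in the count files, and all 86 were among the 17049 genes that passed the filter on low counts. Of these, 77 encode ribosomal proteins of the ordinary ribosome, 46 in the large subunit and 31 in the small subunit. A further 8 are paralogs or retrocopies (Rpl3l, Rpl7l1, Rpl10l, Rpl22l1, Rpl36al, Rpl39l, Rps27l and Rps27rt). The last, Rps19bp1, encodes a partner of Rps19 that is not part of the ribosome.

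The measurements were strand-specific poly(A) RNA-seq counts of MK6 mouse embryonic stem (ES) cells, a line from C57BL/6J mice, collected on day 1 of differentiation in vitro, when the medium held the GSK3 inhibitor CHIR99021. The 8 libraries were 2 biological replicates of each of 4 genotypes at Tbxt, which encodes the mesoderm transcription factor brachyury. WT cells were unedited, Tbxt delE6/delE6 cells lacked exon 6 on both alleles, Tbxt delE6/+ cells lacked it on 1 allele, and Tbxt Insert ASAY cells carried the human AluSx1 and AluY elements in the introns around exon 6 on both alleles. The exon 6 deletions were made in feeder-free culture and the insertion on mouse embryonic fibroblast feeders, with the selection cassette then removed by Cre. Edited lines were grown from picked clones, and the methods state only of the 2 Tbxt delE6/delE6 libraries that their clones differed, so a change of a line and a change of a clone cannot be told apart. The genotypes are written below as WT, delE6/delE6, delE6/+ and Insert ASAY.

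A ribosome holds its proteins in fixed proportion, and a dividing cell makes them in matched amounts. Their messenger RNAs are among the most abundant of a growing cell, and most begin with a C followed by a run of pyrimidines, the 5′ terminal oligopyrimidine (TOP) motif, through which the kinase complex mTORC1 and the RNA-binding protein Larp1 set their translation and stability. ES cells divide fast and carry a high ribosome output. Surplus ribosomal proteins such as Rpl5 and Rpl11 bind Mdm2, the ligase that degrades p53.

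The start sites of these genes are shown first, since they carry the feature the family is best known for. RefSeq start windows on GRCm38.p6, from 25 bases before to 25 bases from the annotated start, were matched for 66 of the 86 genes, with 78 windows in all. The 5 below are the windows of Rps27 and its retrocopy Rps27rt, of Rps18 and Rpl18, which were among the genes that fell most, and of Rpl36a, for which no change passed the test. They are printed 5′ to 3′ on the strand of the gene, and capitals mark CTTTCC or CTCTTT, the 2 pyrimidine motifs that were searched.
Rps27, chr3:90213624-90213673, minus strand: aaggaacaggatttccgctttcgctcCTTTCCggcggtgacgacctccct
Rps27rt, chr9:114982715-114982764, minus strand: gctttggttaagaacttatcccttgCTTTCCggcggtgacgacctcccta
Rps18, chr17:33955641-33955690, minus strand: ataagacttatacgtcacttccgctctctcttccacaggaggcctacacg
Rpl18, chr7:45718046-45718095, plus strand: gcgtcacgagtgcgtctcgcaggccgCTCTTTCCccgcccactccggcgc
Rpl36a, chrX:134585629-134585678, plus strand: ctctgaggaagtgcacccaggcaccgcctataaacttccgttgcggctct
The Rps27 and Rps27rt windows share a run of 24 bases that includes the motif, and differ before it. A C followed by 4 pyrimidines stood at the annotated start in 14 of the 78 windows (17.9%), against 2.51% of the 32851 RefSeq start windows of all genes. CTTTCC or CTCTTT, which can overlap, occurred on the strand of the gene in 17 of the 78 (21.8%), against 4.12% of all windows. On the other strand the shares were 3.85% and 3.75%. A match of these letters is a description of the annotated start, and the start used in these cells was not measured.

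The genes were abundant. In WT, 72 of the 86 had a mean above 500 CPM (counts scaled by library size and TMM factor), 8 lay between 50 and 500 and 6 lay under 50. They made up 47 of the 100 most abundant tested genes, with a median of 1134 CPM against 14.7 CPM for all tested genes. Levels were compared between genes per length, taken as all bases annotated as exon in any transcript of the gene. This length was 383 bases for Rpl36 and 6270 for Rps15a, and can exceed that of the messenger RNA. The order below therefore also depends on the annotated transcripts. In CPM per kilobase of exon, Rplp1 was highest at 4483 ± 78.7 (SD, n = 2), followed by Rps15 at 2200.0 ± 12.5, Rplp0 at 2050.0 ± 19.4, Rps3a1 at 1989 ± 24.4 and Rpl36 at 1974 ± 80.2. Rplp1 and Rplp0 belong to the stalk of the large subunit, which recruits the translation GTPases. Rps3a1 and Rpl36 in this order differed by less than their spread. The lowest were Rpl39l at 28.0, Rps19bp1 at 18.3, Rpl10l at 11.0, Rpl3l at 1.52 and Rpl24 at 0.547. All but the last are a paralog or not a ribosomal protein.

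Rpl24 is an ordinary large subunit protein, yet it had 5 to 23 counts per library. Of its 471 coding bases, 393 (83.4%) also lie in exons of the readthrough gene Gm28037 on the same strand, and a read that fits more than 1 gene is not counted. The part of this overlap in the low count was not tested. Rpl13a was in a like position, with 97.5% of its 609 coding bases shared with Gm45713 and 2139 to 2938 counts per library. Both overlapping genes had 0 counts in all 8 libraries. Reads that map to several places are also left out, and 58 of the 86 genes have pseudogenes named after them, 272 in all. Reads on those pseudogenes came to 20.1% of the count of Rpl13a, 13.6% of that of Rpl38 and 9.89% of that of Rpl36.

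The libraries held between 24618587 and 28445952 gene counts. Tbxt (T in the files) was low on this day, with 47 and 42 counts in WT, 26 and 22 in delE6/delE6, 39 and 54 in delE6/+ and 30 and 29 in Insert ASAY. A whole-gene count includes the exons that remain, so it does not check the exon 6 labels. Of 12 markers of the ES cell and of its exit from pluripotency, 10 were above 1 CPM in at least 1 library. Dppa5a and Pou5f1 were the most abundant, and both, with Nanog, Esrrb and Tfcp2l1, were lower in every edited library than in WT. Others rose in some edited lines and fell in another. Sox2 had 71.2 and 66.2 CPM in WT, 117.1 and 108.7 in delE6/+ and 65.55 and 47.3 in delE6/delE6. Zfp42 had 29.4 and 28.7 in WT, 40.2 and 39.2 in Insert ASAY and 22.0 and 22.7 in delE6/+. Pou3f1 had 23.6 and 22.0 in WT, 33.9 and 42.25 in delE6/delE6 and 21.35 and 20.8 in delE6/+. The 12 together summed to 1251 to 1298 CPM in WT, 640.9 to 815.6 in delE6/delE6, 749.1 to 749.3 in delE6/+ and 837 to 874 in Insert ASAY. The 8 fibroblast markers, which would mark feeder cells, summed to 39.2 to 44.2, 27.7 to 35.3, 38.1 to 38.7 and 18.9 to 18.9 CPM in the same order, with Col3a1, Postn and Lum under 1 CPM in all libraries. The 7 primitive streak markers summed to 20.5 to 21.8, 25.9 to 26.8, 13.1 to 16.0 and 19.7 to 22.8 CPM in that order. The sum was lowest in delE6/+ and highest in delE6/delE6, and Gsc and Evx1 were under 1 CPM in all libraries. Eomes was its largest part, with 20.45 and 20.3 CPM in delE6/delE6 and 6.36 and 8.13 in delE6/+. Tbxt and Fgf8 went the other way between these lines. Tbxt had 1.05 and 0.807 CPM in delE6/delE6 and 1.48 and 2.21 in delE6/+. For Fgf8 the values were 1.22 and 0.807 CPM against 2.46 and 2.82. The part of these marker differences in the results below was not tested.

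The ribosomal protein genes took a smaller share of the counts in every edited library than in either WT library. The share was 10.1% and 9.92% in WT, 9.13% and 8.81% in delE6/delE6, 9.78% and 9.70% in delE6/+ and 9.24% and 9.27% in Insert ASAY. The group means were 10.0% ± 0.13, 8.97% ± 0.229, 9.74% ± 0.0544 and 9.25% ± 0.0191 (SD, n = 2 each). delE6/+ lay between WT and the other lines. The order of delE6/delE6 and Insert ASAY depended on the scaling. Their raw shares did not overlap, but with TMM factors the genes summed to 92155 and 87954 CPM in delE6/delE6, on either side of the 89717 and 89955 CPM in Insert ASAY. WT, at 103718 and 101777 CPM, and delE6/+, at 97566 and 97603, stayed above both on that scale. Genes of both subunits took part. The large subunit genes held 5.51% and 5.48% of the WT counts against 5.06% and 4.88% in delE6/delE6, and the small subunit genes 4.51% and 4.37% against 3.995% and 3.85%. With 2 libraries against 2, an exact permutation test of a single share cannot go below p = 0.333 (two-sided), so no test of the share is given. In bulk RNA, a change in the make-up of the culture and a change in RNA per cell cannot be told apart, and a share says nothing of the absolute amount.

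**Figure D1:**
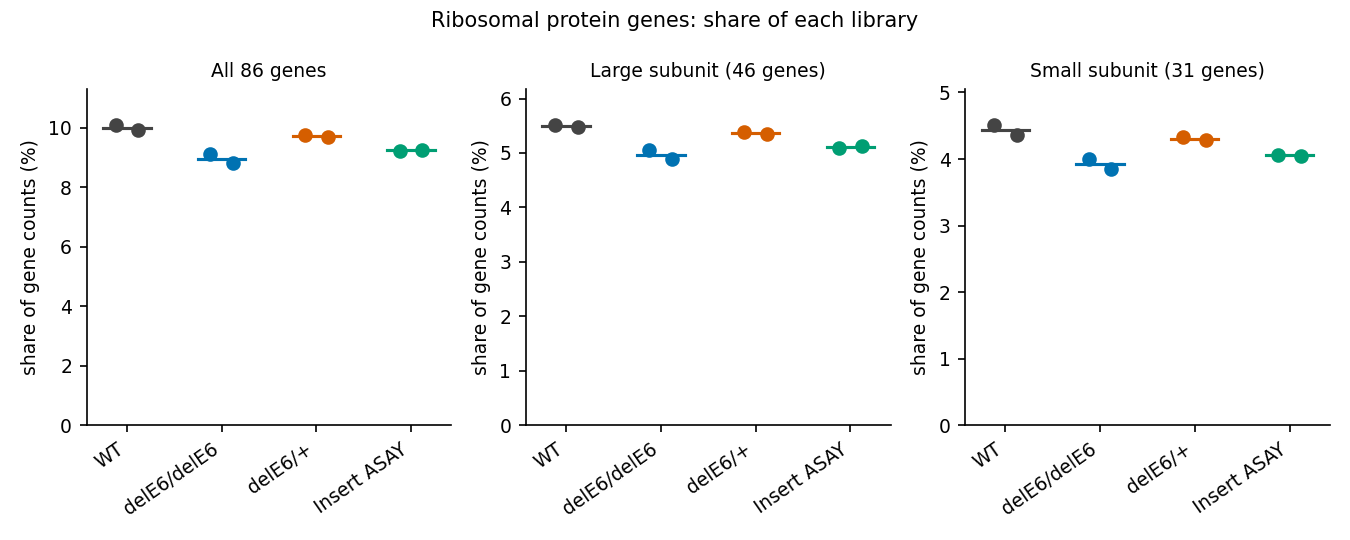
Share of each library's gene counts on ribosomal protein genes (y axis, percent) for the 4 genotypes, for all 86 genes and for the 46 large and 31 small subunit genes of the ordinary ribosome. Points are libraries and bars are means of 2, and in the panel of all 86 genes both WT points lie above every other point.

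In delE6/delE6 cells, most of the genes were slightly lower than in WT. Of the 86, 67 were lower and 1 was higher at an adjusted p under 0.05, and 18 did not pass. Over all tested genes, 17.1% were lower and 18.3% were higher by the same rule. Here and in the comparisons below, the shares of all tested genes are not matched for abundance. The median in WT was 1134 CPM for the 86 genes and 14.7 CPM for all tested genes. Abundant genes have little counting error, so small changes can pass, and the part of this in the counts was not tested. The median log2 fold change was -0.18 (quartiles -0.26 and -0.13), a difference of -11.5%, against -0.01 for all tested genes. Both delE6/delE6 libraries lay below both WT libraries for 77 of the 86 genes, against 34.3% of all tested genes. The change was small for each gene. None of the 86 passed the second rule, an adjusted p under 0.05 with a log2 fold change over 0.5 in size, which called 12.7% of all tested genes in the edgeR fit, and none passed it with an unadjusted p or with DESeq2.

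The count of 67 lower genes depended on which libraries were fitted, those of WT and of delE6/delE6 among them. With only WT and delE6/delE6 in the fit, 46 genes were lower and 1 was higher. Leaving out WT replicate 1 left 37 of the 86 genes past the adjusted p, and leaving out WT replicate 2 left 45, against 68. The median moved less, between -0.20 and -0.15 over the fits that left out 1 library. In the large subunit, 36 of 46 genes were lower, and in the small subunit 28 of 31, with medians of -0.18 and -0.19. No gene of either set was higher.

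Among the strongest decreases was Rps18, a protein of the small subunit head, on chromosome 17 (33951999 to 33956001). It had 2098 and 1971 CPM in WT, 1577 and 1531 in delE6/delE6, 1669 and 1714 in delE6/+ and 1584 and 1601 in Insert ASAY. Every edited library was below both WT libraries. The log2 fold change was -0.39 ± 0.04 (SE, adjusted p = 7.7e-05) in delE6/delE6, -0.27 ± 0.04 (adjusted p = 0.00044) in delE6/+ and -0.35 ± 0.04 (adjusted p = 3.7e-05) in Insert ASAY.

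Rpl18, a large subunit protein on chromosome 7 (45715457 to 45720836), had 1561 and 1576 CPM in WT, 1255 and 1143 in delE6/delE6, 1381 and 1450.1 in delE6/+ and 1141 and 1151 in Insert ASAY. Every edited library was below both WT libraries, and the delE6/+ libraries were above those of the other edited lines. It fell by 0.39 ± 0.05 on the log2 scale (SE, adjusted p = 0.00014) in delE6/delE6, by 0.15 ± 0.05 (adjusted p = 0.033) in delE6/+ and by 0.45 ± 0.05 (adjusted p = 1.5e-05) in Insert ASAY.

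Rpl36, a short large subunit protein, had 777.6 and 734.2 CPM in WT, 616.8 and 542.9 in delE6/delE6, 736.1 and 710.7 in delE6/+ and 566.1 and 566.9 in Insert ASAY. Here the delE6/+ libraries overlapped those of WT. The log2 fold changes were -0.38 ± 0.06 (adjusted p = 0.00036), -0.06 ± 0.06 (adjusted p = 0.43) and -0.42 ± 0.06 (adjusted p = 7.8e-05). Rps15, which lies in the small subunit head near the decoding site, followed a like order, with 1392 and 1381 CPM in WT, 1155 and 1059 in delE6/delE6, 1266 and 1299.6 in delE6/+ and 1066 and 1062 in Insert ASAY.

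Rps14, a small subunit protein of the platform, had the lowest log2 fold change of the 77 ordinary genes in delE6/delE6, at -0.42 ± 0.08 (SE, adjusted p = 0.0015). Its WT libraries also differed most from each other among the 80 genes above 50 CPM, with 2295 and 1896 CPM, a difference of 0.28 on the log2 scale. The delE6/delE6 libraries had 1628 and 1495 CPM, below both.

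**Figure D2:**
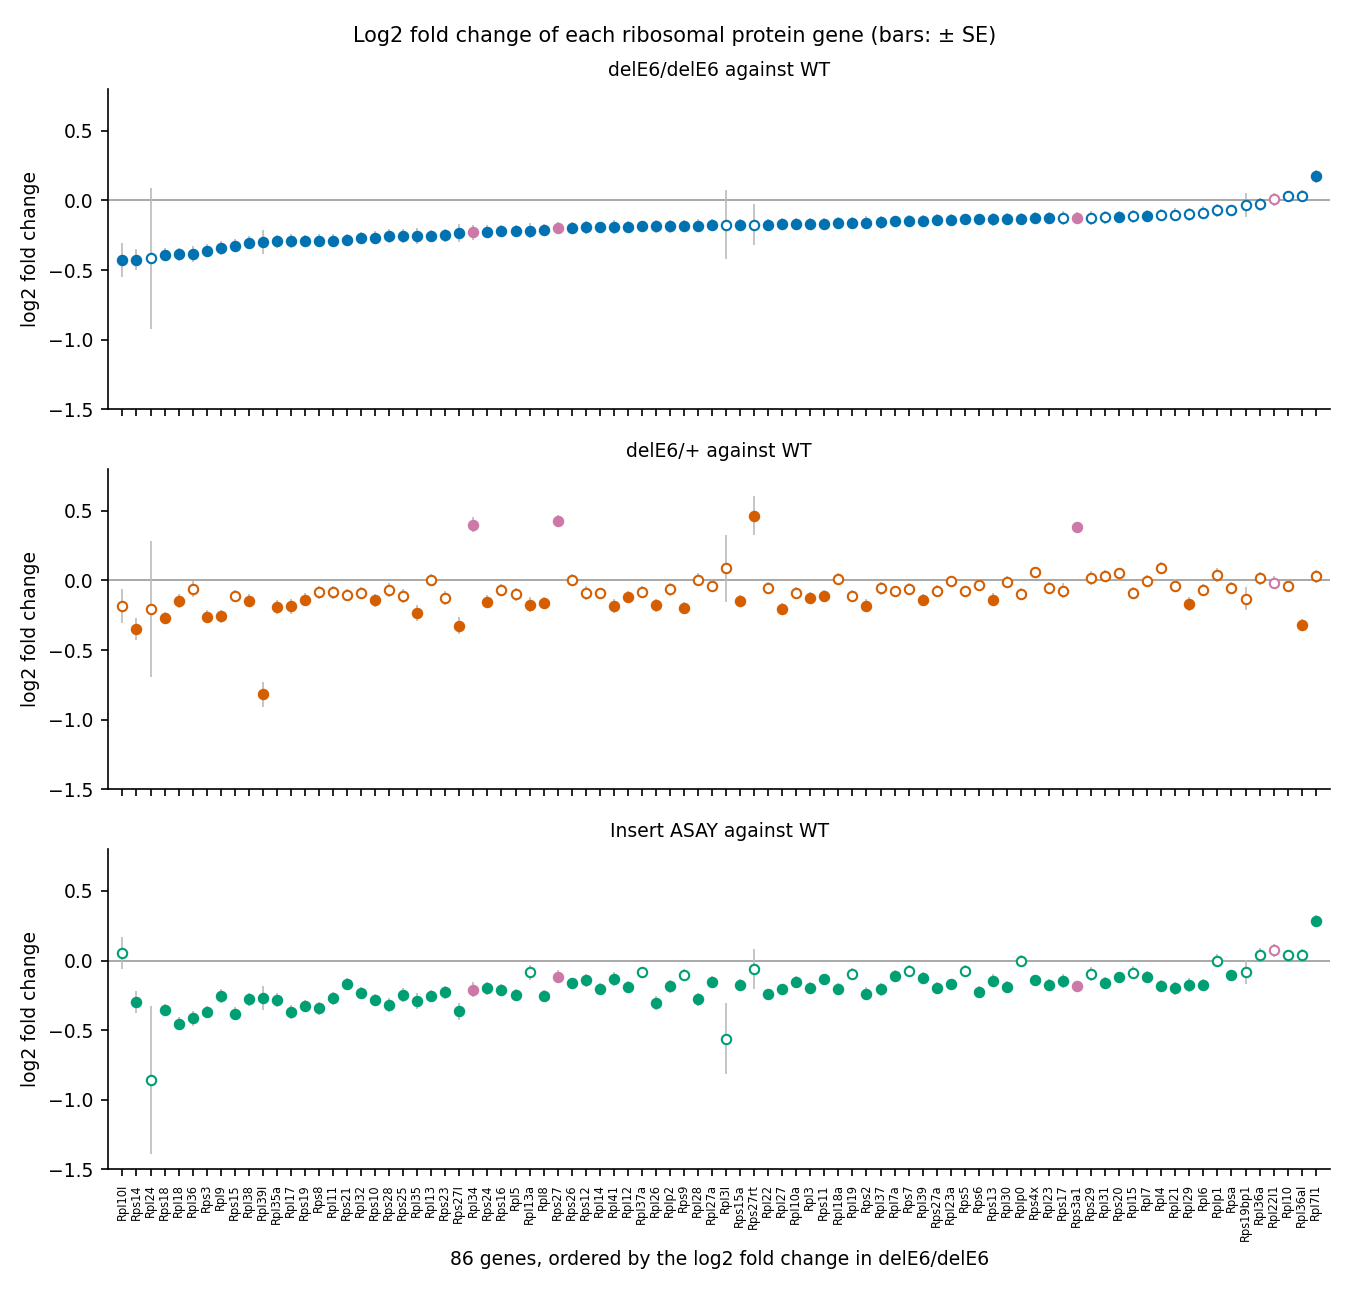
Log2 fold change against WT (y axis) of each of the 86 genes (x axis, ordered by the value in delE6/delE6) in the 3 edited lines, with bars of ± SE. Filled points passed an adjusted p under 0.05 and open points did not, and pink points are the 4 genes on chromosome 3, of which 3 lie near 0.4 in delE6/+ and below 0 in the other lines.

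In Insert ASAY cells most of the genes were also slightly lower than in WT. Of the 86 genes, 66 were lower and 1 was higher at an adjusted p under 0.05, against 24.1% lower and 23.2% higher of all tested genes. The median log2 fold change was -0.19 (quartiles -0.25 and -0.12), a difference of -12.1%, against -0.01 for all tested genes. Both Insert ASAY libraries lay below both WT libraries for 75 of the 86 genes, against 38.5% of all tested genes. None passed the second rule, which called 21.3% of all tested genes. At an unadjusted p under 0.05 that rule took 1, Rpl3l, and DESeq2 called none. These comparisons use the same WT libraries as those of delE6/delE6, so the 2 sets of values are not independent.

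The subunits again moved together, with 37 of 46 large subunit genes and 27 of 31 small subunit genes lower, at medians of -0.19 and -0.18. Rplp0 and Rplp1 of the stalk did not pass. Rplp0 had 3379 and 3424 CPM in WT and 3366 and 3416 in Insert ASAY, and Rplp1 had 2209 and 2265 against 2196 and 2275. The groups overlapped for both. Rplp2, their partner in the stalk, had 938.8 and 935.9 CPM in WT against 807.7 and 842.1 in Insert ASAY, a log2 fold change of -0.18 ± 0.05 (SE, adjusted p = 0.0052). Rpsa, a small subunit protein also known as the laminin receptor precursor, had 3243 and 3293 CPM in WT against 3022 and 3055, a log2 fold change of -0.11 ± 0.04 (adjusted p = 0.041).

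The 2 lines with a change on both alleles were compared directly as well. Between Insert ASAY and delE6/delE6 the median log2 fold change of the 86 genes was 0.00 (quartiles -0.05 and 0.04), and 1 gene differed at an adjusted p under 0.05, against 15.4% of all tested genes in either direction. That gene was Rpl10l. When either Insert ASAY library was left out, no gene passed. No gene passed the second rule in edgeR, with an unadjusted p or with DESeq2, against 5.16% of all tested genes. Without delE6/delE6 replicate 2 the count at an adjusted p under 0.05 was 15 and the median was -0.04, and the spread between the 2 delE6/delE6 libraries, a median difference of -0.06 on the log2 scale, was the largest of the 4 genotypes.

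**Figure D3:**
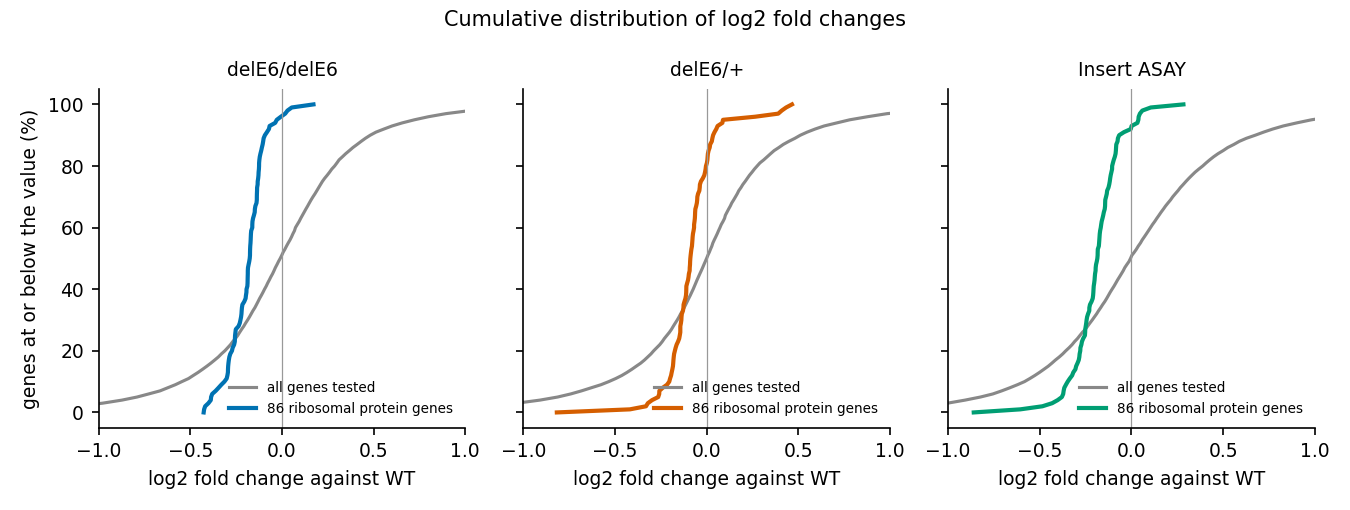
Cumulative distribution of log2 fold changes against WT (x axis; y axis, percent of genes at or below the value) for the 86 ribosomal protein genes and for all 17049 tested genes. The coloured curve crosses 50% at -0.18 in delE6/delE6, -0.09 in delE6/+ and -0.19 in Insert ASAY, and the grey curve crosses near 0 in each panel.

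In delE6/+ cells the decrease was smaller and fewer genes passed. Of the 86 genes, 29 were lower and 4 were higher at an adjusted p under 0.05, and 53 did not pass, against 16.2% lower and 15.4% higher of all tested genes. The median log2 fold change was -0.09 (quartiles -0.15 and -0.03) against 0.00 for all tested genes. Both delE6/+ libraries lay below both WT libraries for 60 of the 86 genes, against 34.9% of all tested genes. Under the second rule, 1 gene was called, Rpl39l, against 13.5% of all tested genes. This decrease was sensitive to how libraries were scaled for gene length and GC content. With offsets that removed each library's trend on both, the median was -0.02, with 16 genes lower and 7 higher. Leaving out 1 library gave counts of 12 without WT replicate 1, 13 without delE6/+ replicate 1 and 20 without delE6/+ replicate 2, against 33.

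Against delE6/delE6, 37 of the 86 genes were higher in delE6/+ and 3 were lower, where 22.9% of all tested genes were higher and 24.2% lower. The 3 were Rpl36al, Rpl39l and Rpl7l1. The median log2 fold change was 0.10, and 0.16 with the length and GC offsets. A fit of these genotypes alone passed 22 genes in place of 40, and leaving out delE6/delE6 replicate 2, delE6/+ replicate 1 or delE6/+ replicate 2 passed 26, 24 and 23. The second rule called 5 genes (Rps3a1, Rps27, Rpl34 and Rps27rt higher, Rpl39l lower), against 22.2% of all tested genes. Against delE6/+, 40 of the 86 genes were lower and 3 (Rpl36al, Rpl39l and Rpl7l1) were higher in Insert ASAY, where 26.1% of all tested genes were lower and 26.8% higher. The median was -0.11, and -0.17 with the offsets, and the count was 25 without Insert ASAY replicate 1 and 27 without Insert ASAY replicate 2. Here the second rule called 6 genes (Rps3a1, Rps27, Rpl34, Rps27rt and Rpl3l lower, Rpl39l higher), against 27.5% of all tested genes.

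Of the 4 genes that rose in delE6/+, 3 lie on chromosome 3. Rps3a1, a small subunit protein (86137940 to 86142702), had 1927 and 1960.4 CPM in WT, 1810.2 and 1754 in delE6/delE6, 2568 and 2494 in delE6/+ and 1691 and 1729 in Insert ASAY. Both delE6/+ libraries were above all others. The log2 fold change against WT was 0.38 ± 0.04 (SE, adjusted p = 1.5e-05) in delE6/+, -0.12 ± 0.04 (adjusted p = 0.029) in delE6/delE6 and -0.18 ± 0.04 (adjusted p = 0.0022) in Insert ASAY.

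Rps27, a small subunit protein with a zinc finger (90212522 to 90213651), had 897.1 and 894.8 CPM in WT, 802.0 and 758.8 in delE6/delE6, 1239 and 1171 in delE6/+ and 829.3 and 825.3 in Insert ASAY, with 0.43 ± 0.04 on the log2 scale (SE, adjusted p = 1.3e-05) in delE6/+. Rpl34, a large subunit protein (130726831 to 130730398), had 682.3 and 627.3 CPM in WT, 577.1 and 540.6 in delE6/delE6, 878.2 and 851.9 in delE6/+ and 581.0 and 551.6 in Insert ASAY, with 0.40 ± 0.05 (adjusted p = 7.7e-05) in delE6/+. For both genes the delE6/+ libraries stood above all others.

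Other genes of chromosome 3 also differed in delE6/+. The median log2 fold change of the 848 tested genes of chromosome 3 was 0.32 in delE6/+, against -0.01 in both other lines, while the medians of the other 19 chromosomes lay between -0.05 and 0.08 in delE6/+. The shift was not even along the chromosome. In windows of 20 Mb, the delE6/+ median was 0.08 and 0.05 over the first 2, 0.22 from 40 to 60 Mb, 0.41 from 60 to 80 Mb, 0.41 from 80 to 100 Mb, 0.50 from 100 to 120 Mb, 0.52 from 120 to 140 Mb and -0.64 from 140 to 160 Mb. In the last window, 52 of 78 genes were lower and 0 were higher at an adjusted p under 0.05. Over all tested genes, 16.2% were lower and 15.4% higher in delE6/+ by the same rule. Neighbours were taken as the 10 tested genes on each side in order of start position. Of the 20 around Rpl34, 16 were higher in delE6/+, with a median of 0.59. The figures were 14 of 20 and 0.40 around Rps27, and 8 of 20 and 0.25 around Rps3a1. Rpl22l1, the fourth gene on this chromosome (28805436 to 28807424), lies outside the raised stretch, and its log2 fold change was -0.02 ± 0.05 (SE, adjusted p = 0.84), with 2 of its 20 neighbours higher and 5 lower. DNA copy number was not measured, and the part of the neighbouring genes' shift in these values was not tested. Over the 82 genes on other chromosomes, 29 were lower and 1 was higher in delE6/+, against 16.2% and 15.4% of all tested genes. Their median was -0.09.

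**Figure D4:**
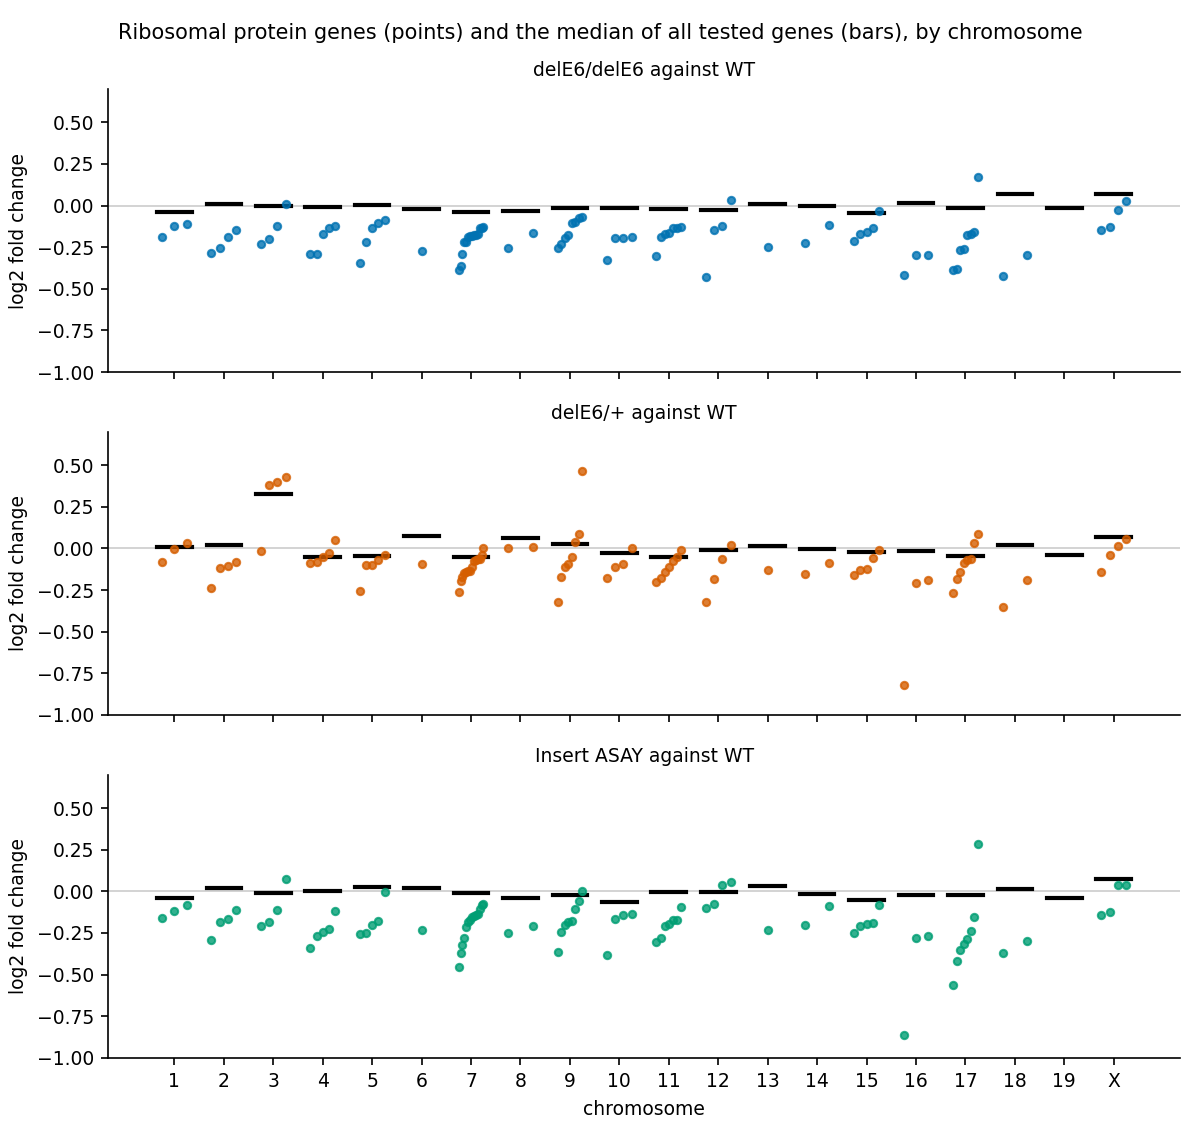
Log2 fold change against WT (y axis) by chromosome (x axis) in the 3 edited lines. Points are the 86 ribosomal protein genes, sorted by value within a chromosome, and bars are the median of all tested genes of the chromosome. In delE6/+ the bar of chromosome 3 stands at 0.32 and every other bar between -0.05 and 0.08.

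The fourth gene that rose in delE6/+ was Rps27rt, an intronless copy of Rps27 on chromosome 9 (114982366 to 114982739). How many of its reads came from Rps27 was not tested. The coding sequences of the 2 genes are identical over all 252 bases, and a transcript of Rps27rt (374 bases) shares a run of 341 bases with one of Rps27 (345 bases). The shared coding sequence, from GENCODE M21 on GRCm38, is printed below.
Rps27 and Rps27rt, coding: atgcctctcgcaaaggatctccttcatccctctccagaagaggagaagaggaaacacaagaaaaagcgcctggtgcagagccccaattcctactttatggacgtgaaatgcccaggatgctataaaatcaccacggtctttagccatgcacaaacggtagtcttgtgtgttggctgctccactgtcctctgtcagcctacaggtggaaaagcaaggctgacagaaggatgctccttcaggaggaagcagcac
Rps27rt had 8.99 and 12.3 CPM in WT, 8.83 and 10.0 in delE6/delE6, 15.9 and 13.5 in delE6/+ and 10.1 and 10.3 in Insert ASAY. Its log2 fold change in delE6/+ was 0.47 ± 0.14 (SE, adjusted p = 0.022), beside 0.43 for Rps27. Without WT replicate 1 it was 0.25 (adjusted p = 0.25), and without delE6/+ replicate 1 it was 0.34 (adjusted p = 0.21).

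**Figure D5:**
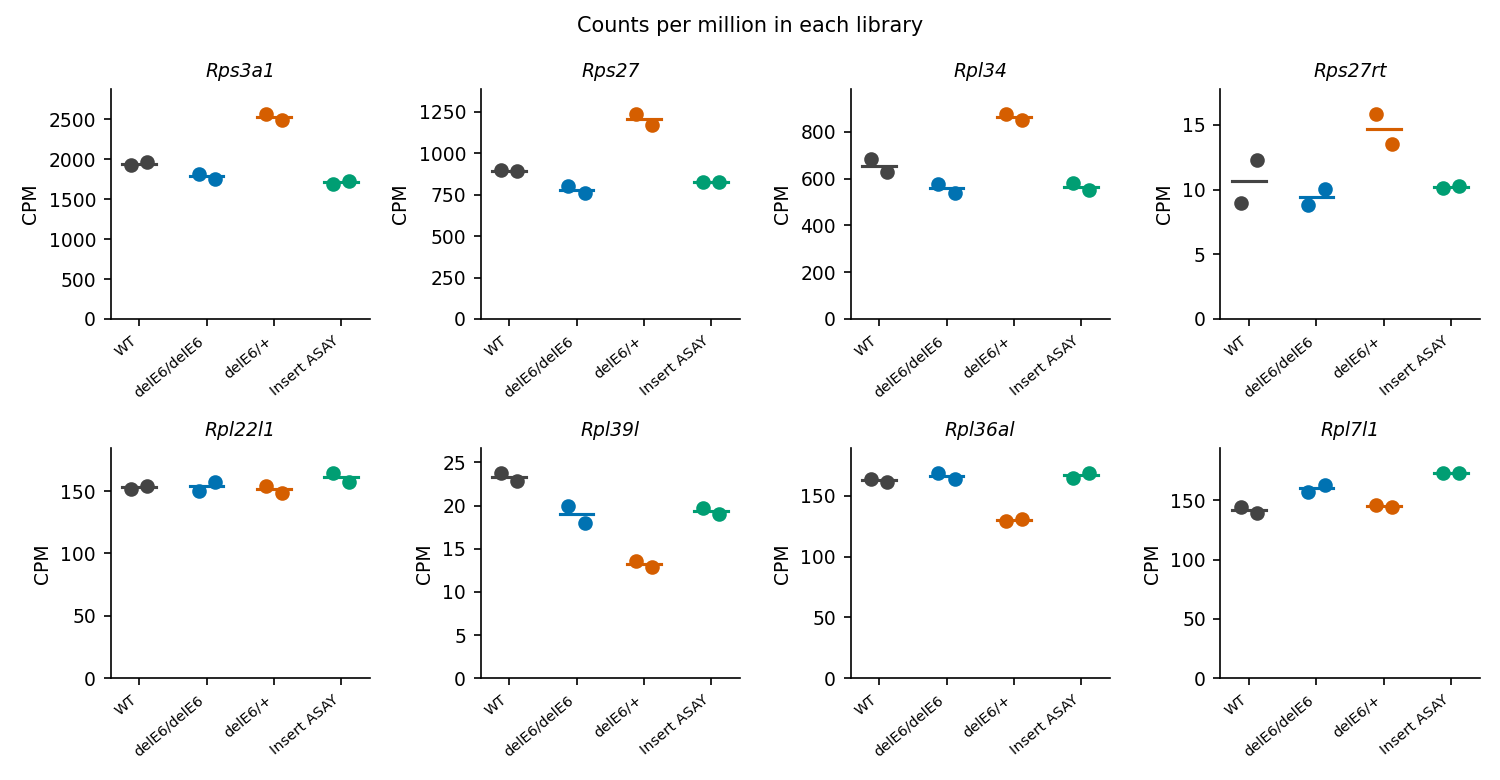
CPM (y axis, from 0, a scale for each gene) of 8 genes in the 4 genotypes. Points are libraries and bars are means of 2. Rps3a1, Rps27, Rpl34 and Rps27rt stand highest and Rpl39l and Rpl36al lowest in delE6/+, while Rpl7l1 is highest in Insert ASAY.

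The paralogs did not follow 1 pattern. Rpl39l, on chromosome 16 (10170226 to 10174911), is a copy of X-linked Rpl39 best known from the testis, and it was the gene with the largest fitted change against WT that passed the test. It had 23.8 and 22.8 CPM in WT, 20 and 17.9 in delE6/delE6, 13.6 and 12.8 in delE6/+ and 19.7 and 18.99 in Insert ASAY. The delE6/+ libraries were below all others. The log2 fold change was -0.82 ± 0.09 (SE, adjusted p = 1.6e-05) in delE6/+, -0.30 ± 0.08 (adjusted p = 0.015) in delE6/delE6 and -0.27 ± 0.08 (adjusted p = 0.018) in Insert ASAY. The last 2 had an adjusted p of 0.061 and 0.067 with DESeq2, and 0.11 and 0.12 without WT replicate 1.

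Rpl39 itself, on the X chromosome (37082520 to 37085402), had 497.9 and 489.2 CPM in WT and 454.3 and 442.2 in delE6/+, a log2 fold change of -0.14 ± 0.04 (SE, adjusted p = 0.02). Each coding sequence has 153 bases, 130 of them the same (85.0%), with a longest shared run of 38. Capitals mark the 23 bases that differ.
Rpl39, coding: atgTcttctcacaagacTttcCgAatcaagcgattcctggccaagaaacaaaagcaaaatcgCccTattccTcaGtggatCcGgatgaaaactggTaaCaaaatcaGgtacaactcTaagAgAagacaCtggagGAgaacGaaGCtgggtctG
Rpl39l, coding: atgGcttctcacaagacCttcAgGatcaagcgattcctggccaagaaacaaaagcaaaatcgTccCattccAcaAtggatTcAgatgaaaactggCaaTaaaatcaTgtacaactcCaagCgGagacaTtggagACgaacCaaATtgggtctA

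Rpl36al, the autosomal copy of X-linked Rpl36a, was lower in delE6/+ alone among the comparisons with WT that passed the test. It had 163.7 and 161.6 CPM in WT, 168.5 and 164.2 in delE6/delE6, 129.4 and 131.3 in delE6/+ and 164.7 and 168.9 in Insert ASAY. The log2 fold change in delE6/+ was -0.32 ± 0.04 (SE, adjusted p = 0.00013), and its difference from delE6/delE6 was -0.35 ± 0.04 (adjusted p = 3.3e-05). Rpl36a had log2 fold changes of -0.03, 0.02 and 0.04 in delE6/delE6, delE6/+ and Insert ASAY, with adjusted p-values of 0.69, 0.84 and 0.51.

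Rpl7l1, which takes the place of Rpl7 in large subunit precursors of the nucleolus, was the 1 gene of the 86 that was higher than WT at an adjusted p under 0.05 in delE6/delE6, and likewise in Insert ASAY. It had 144.4 and 139.5 CPM in WT, 157.1 and 162.7 in delE6/delE6, 145.9 and 143.9 in delE6/+ and 172.6 and 173.0 in Insert ASAY. The log2 fold change was 0.17 ± 0.04 (SE, adjusted p = 0.01) in delE6/delE6, 0.03 ± 0.04 (adjusted p = 0.66) in delE6/+ and 0.28 ± 0.04 (adjusted p = 0.00023) in Insert ASAY. In delE6/delE6, Rpl7l1 no longer passed an adjusted p under 0.05 with the length and GC offsets or without WT replicate 2. Rpl7 was lower, by 0.11 on the log2 scale in delE6/delE6 (adjusted p = 0.049) and by 0.12 in Insert ASAY (adjusted p = 0.029).

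Rps27l, a copy of Rps27 that p53 can induce, had 265.2 and 253.7 CPM in WT, 238.4 and 203.3 in delE6/delE6, 207.4 and 207.2 in delE6/+ and 198.1 and 204.7 in Insert ASAY. It fell by 0.23 ± 0.06 (SE, adjusted p = 0.012), 0.32 ± 0.06 (adjusted p = 0.0016) and 0.37 ± 0.06 (adjusted p = 0.00043) on the log2 scale. Rpl10l, a copy of X-linked Rpl10 used in male germ cells, had 12.1 and 10.5 CPM in WT, 9.11 and 7.70 in delE6/delE6, 9.54 and 10.3 in delE6/+ and 11.3 and 12.1 in Insert ASAY. Its log2 fold change was -0.43 ± 0.12 (adjusted p = 0.016) in delE6/delE6, and Insert ASAY stood 0.48 ± 0.12 above delE6/delE6 (adjusted p = 0.018). Rpl10 had log2 fold changes of 0.03, -0.04 and 0.04, none of which passed.

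Rpl3l, a muscle form of Rpl3, was at 1.57 to 2.95 CPM in all libraries. It passed only between Insert ASAY and delE6/+, at -0.65 ± 0.26 on the log2 scale (SE, adjusted p = 0.047), and not with DESeq2 (adjusted p = 0.13), with unstranded counts (adjusted p = 0.051) or without any 1 of the WT, Insert ASAY or delE6/+ libraries (adjusted p of 0.058 to 0.27). Rpl3 was lower than WT in all 3 lines, by 0.17, 0.13 and 0.20 on the log2 scale with adjusted p-values of 0.0063, 0.03 and 0.0015. Rpl22l1 had log2 fold changes of 0.01, -0.02 and 0.07, and Rps19bp1 of -0.03, -0.13 and -0.08, none of which passed. Rpl22 was lower in delE6/delE6 (-0.17, adjusted p = 0.0072) and Insert ASAY (-0.24, adjusted p = 0.00047), with -0.05 in delE6/+ (adjusted p = 0.39).

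Some genes of the ribosome carry other names and fall outside the rule. Fau, which encodes a small subunit protein fused to a ubiquitin-like sequence, was lower in all 3 lines, at -0.15, -0.13 and -0.12 on the log2 scale in delE6/delE6, delE6/+ and Insert ASAY (adjusted p = 0.014, 0.031 and 0.038). Rack1, a scaffold on the small subunit, was lower in delE6/delE6 (-0.19, adjusted p = 0.0051) and delE6/+ (-0.14, adjusted p = 0.027), and stood at -0.11 in Insert ASAY (adjusted p = 0.067).

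Of 20 translation factors and related genes whose messenger RNAs carry a TOP motif, 4 were lower in delE6/delE6, 7 in delE6/+ and 8 in Insert ASAY, and 1, Npm1, was higher in Insert ASAY. The lower genes were 20%, 35% and 40% of the list, against 17.1%, 16.2% and 24.1% of all tested genes, so that the share in delE6/delE6 was near that of all genes. The medians were -0.05, -0.09 and -0.08 on the log2 scale, against -0.01, 0.00 and -0.01 for all tested genes. Pabpc1, the poly(A)-binding protein, fell by 0.19, 0.12 and 0.29, and Eef1b2, an elongation factor subunit, fell by 0.28 in delE6/+. None of the 20 passed the second rule.

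Of the 42 ribosome biogenesis genes, 24 did not pass in delE6/delE6, 21 in delE6/+ and 18 in Insert ASAY. In delE6/delE6, 8 were higher and 10 lower (19% and 23.8%), not far from the 18.3% and 17.1% of all tested genes. In delE6/+ 15 were higher and 6 lower (35.7% and 14.3%, against 15.4% and 16.2%), and in Insert ASAY 16 and 8 (38.1% and 19%, against 23.2% and 24.1%). The medians were 0.04, 0.11 and 0.06 on the log2 scale. Under the second rule, Dkc1, the pseudouridine synthase of the nucleolus, was called in delE6/delE6 (-0.55 ± 0.08, SE, adjusted p = 0.00032). Myc, a transcription factor that drives ribosome production, was called in opposite directions, at 0.88 ± 0.13 in delE6/delE6 (adjusted p = 0.00043) and -1.32 ± 0.16 in delE6/+ (adjusted p = 4.9e-05). Gar1, which works with Dkc1, was called in delE6/+ (0.60 ± 0.06, adjusted p = 1.3e-05) and lies on chromosome 3 near Rpl34, at 129824912 to 129831396. Polr1b, a subunit of RNA polymerase I, was called in Insert ASAY (0.52 ± 0.06, adjusted p = 2.9e-05).

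The noncoding hosts of small nucleolar RNAs, many of which also carry a TOP motif, were mostly lower in the lines edited on both alleles. Of 9 tested, 8 were lower in delE6/delE6, 6 of them past the second rule, with a median of -0.53 on the log2 scale, and 8 were lower and 1 higher in Insert ASAY, with a median of -0.36. In delE6/+ 2 were lower and 1 higher, with a median of -0.02. The 8 lower genes were 88.9% of the list, against 17.1% of all tested genes in delE6/delE6 and 24.1% in Insert ASAY, and the 2 in delE6/+ were 22.2% against 16.2%. Snhg1 fell by 1.10 ± 0.05 (SE, adjusted p = 8.4e-08) in delE6/delE6, by 0.93 ± 0.05 (adjusted p = 5.2e-07) in Insert ASAY and by 0.15 ± 0.05 (adjusted p = 0.037) in delE6/+. Gas5 fell by 0.53 in delE6/delE6 and by 0.71 in Insert ASAY, and was at 0.02 in delE6/+ (adjusted p = 0.87). Zfas1 and Snhg12 were also called in delE6/delE6, at -0.72 each, and Snhg12 in Insert ASAY at -0.71. Snhg3 was called lower in delE6/+ (-0.59, adjusted p = 0.028) and higher in Insert ASAY (0.78, adjusted p = 0.0015). Snhg8, the host that rose in delE6/+ (1.06 ± 0.09, adjusted p = 1.8e-06), lies on chromosome 3 at 123507552 to 123508404.

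Of 14 genes of mTORC1 and the regulators of TOP messenger RNAs, 2 were higher and 4 lower in delE6/delE6, 1 and 3 in delE6/+, and 1 and 7 in Insert ASAY. The lower genes were 28.6%, 21.4% and 50% of the list, against 17.1%, 16.2% and 24.1% of all tested genes, and the higher genes 14.3%, 7.14% and 7.14%, against 18.3%, 15.4% and 23.2%. Deptor, an inhibitor of mTORC1, was called lower in delE6/delE6 (-0.57) and Insert ASAY (-0.64), and Tsc1, another inhibitor, in delE6/delE6 (-0.51). Larp1 was at -0.03, 0.04 and -0.19 on the log2 scale, and passed in Insert ASAY alone (adjusted p = 0.0023). Of 10 p53 response genes, 4 were higher and 3 lower in delE6/delE6, 0 and 5 in delE6/+, and 3 and 4 in Insert ASAY. By the same background, the higher genes were 40%, 0% and 30% of this list and the lower genes 30%, 50% and 40%. Mdm2 and the cell-cycle inhibitor Cdkn1a were called lower in delE6/+, at -0.67 ± 0.05 (SE, adjusted p = 1.1e-06) and -0.60 ± 0.05 (adjusted p = 1.8e-06). Trp53, which encodes p53, was called higher in Insert ASAY (0.53 ± 0.06, adjusted p = 2.8e-05), Zmat3 lower there (-0.50 ± 0.05, adjusted p = 1.7e-05), and Eda2r lower in delE6/delE6 (-0.50) and Insert ASAY (-0.79).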

How the data were processed

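The deposited files hold raw counts per gene. Per the labels and the study's methods, the authors aligned the reads of poly(A)-selected, strand-specific libraries to mm10 with STAR 2.7.2a, which counted uniquely placed reads that fit a single gene, and tested them with DESeq2 1.40.2. The fourth column of each table, the strand of the kit, was used. The annotation release is not given in the sources used here, and 48058 of 48440 identifiers matched GENCODE M21 without their version.

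Counts were fitted with edgeR 4.0.16 (R 4.3.3; limma 3.58.1), using TMM scaling, the default filter (minimum count 10, minimum total 15), all 8 libraries, 1 coefficient per genotype and the quasi-likelihood test, with Benjamini-Hochberg adjustment over all 17049 tested genes. SE is the log2 fold change divided by the square root of the F statistic. The second rule of the text asks for an adjusted p below 0.05 together with a log2 fold change above 0.5 in size, and counts at any fold are given beside it. The fit was tested on simulated data. With 2 replicates a group, the p-values set a difference against the spread between these libraries, estimated over all 4 genotypes. Different clones are stated only for delE6/delE6, so this spread need not cover the variation between clones of a genotype.

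The genes and gene lists were chosen with earlier results of these data known. The genes named were Tbxt, each gene called in any of 6 comparisons, the 5 highest and 5 lowest of each line against WT, the paralogs with their parents, the stalk proteins and Rpsa, the 5 highest and 5 lowest by length-scaled level, and up to 3 called genes of each list; other genes of the lists are named as examples chosen after their values were seen. Alternatives were DESeq2 1.42.0, DESeq2 size factors, TMM without these genes, other count filters, unstranded counts, pairwise fits, a replicate block, a test against a fold threshold, offsets for exon length and GC content, other member sets and leaving out each library. Chromosome 3 and readthrough alternatives were added after seeing the data. A result that needs a withheld item is not reported here.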

Additional observations from a re-analysis of the deposited data

Results flagged for a closer look

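Groups of 2 libraries allow no test for an outlying sample. By the test of the difference itself in the edgeR fit, at an adjusted p under 0.05, the effect against WT differed for 40 of the 86 genes between delE6/+ and delE6/delE6, for 43 between Insert ASAY and delE6/+ and for 1, Rpl10l, between Insert ASAY and delE6/delE6 (0.48 on the log2 scale, adjusted p = 0.018). The values below are those over 0.5 in size, together with Rpl36al, whose difference is given above. Between delE6/+ and delE6/delE6 the log2 difference was 0.51 for Rps3a1 (adjusted p = 8.2e-07), 0.63 for Rps27 (adjusted p = 3.4e-07), 0.63 for Rpl34 (adjusted p = 1.1e-06), 0.64 for Rps27rt (adjusted p = 0.0026) -0.52 for Rpl39l (adjusted p = 0.00041) and -0.35 for Rpl36al (adjusted p = 3.3e-05). Between Insert ASAY and delE6/+ it was -0.57 for Rps3a1 (adjusted p = 3.1e-07), -0.54 for Rps27 (adjusted p = 8.9e-07), -0.61 for Rpl34 (adjusted p = 1.2e-06), -0.53 for Rps27rt (adjusted p = 0.0069), 0.55 for Rpl39l (adjusted p = 0.00021) and -0.65 for Rpl3l (adjusted p = 0.047).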

How the results depend on the processing

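The 76 pairs of a gene and a comparison examined here were those of the named genes that passed an adjusted p under 0.05 in the edgeR fit. Each was refitted under 19 alternatives, and none of the 1444 values reversed. The pairs were picked for passing in these same data, so the absence of reversals is not an independent check. With 1 library left out, 491 kept their side of the threshold and 117 no longer passed, and under the other settings 723 kept it and 113 no longer passed.

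Past the second rule, the count in delE6/+ against WT was 2 with length and GC offsets and 0 over the 77 ordinary genes. In Insert ASAY against WT it was 1 with no filter and 1 in the pairwise fit. In delE6/+ against delE6/delE6 it was 2 by the TREAT test, 3 with offsets, 3 over the ordinary genes and 2 off chromosome 3. In Insert ASAY against delE6/+ it was 0 by the TREAT test, 3 over the ordinary genes and 3 off chromosome 3. At any fold, delE6/+ against delE6/delE6 gave 22 in the pairwise fit, and Insert ASAY against delE6/delE6 gave 5 with no filter, 0 in the pairwise fit, 3 with offsets and 0 over the ordinary genes. With offsets the median log2 fold change was -0.025 for delE6/+ and -0.22 for Insert ASAY against WT, 0.16 for delE6/+ and -0.023 (reversed from 0.00) for Insert ASAY against delE6/delE6, and -0.17 for Insert ASAY against delE6/+. The cause was not tested.

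The mean share of counts was 10.2% in WT with pseudogene reads added. In delE6/+ it was 9.67% over the ordinary genes, 9.93% with pseudogene reads and 9.84% with unstranded counts, and in Insert ASAY 9.17%, 9.42% and 9.31%.

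With 1 library left out, when a lone library is assumed to vary like the other groups, the ranges against WT were as follows. For delE6/delE6, 0 to 2 genes passed the second rule and 37 to 75 passed at any fold, with medians of -0.20 to -0.15. For delE6/+ these were 1 to 2, 12 to 44 and -0.11 to -0.07, and for Insert ASAY 0 to 1, 46 to 75 and -0.20 to -0.18. Between lines they were 4 to 5, 23 to 52 and 0.062 to 0.13 for delE6/+ against delE6/delE6, 0 to 1, 0 to 15 and -0.036 (reversed, without delE6/delE6 replicate 2) to 0.015 for Insert ASAY against delE6/delE6, and 4 to 6, 25 to 53 and -0.12 to -0.09 for Insert ASAY against delE6/+.

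The replicate numbers give only 2 pairs and no shared source, and deviations of same-numbered libraries correlated at -0.1 to 0.07 over 12837 genes. With the replicate number as a block, 67, 31 and 65 genes passed at any fold in delE6/delE6, delE6/+ and Insert ASAY against WT, and the block changed no count by over 1.5 times. The counts of Rpl24 (5 to 23 per library), Rpl3l and Rps27rt limit what can be said of them.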
